A study of Rattus norvegicus with 20 samples.

Results

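The livers of 3 rats given 527.1 mg/kg isodecyl diphenyl phosphate (IDDP) were compared with those of 3 rats given 263.6 mg/kg, which is a doubling of the dose from 0.675 to 1.35 mmol/kg. IDDP belongs to the aryl phosphates that serve as flame retardants and plasticisers. The 6 arrays were chosen by the dose in their titles, out of 20 arrays in the study, and all 31042 probe sets that are not Affymetrix controls were tested. Every rat was a male of the Harlan Sprague Dawley strain and was gavaged on 4 days running with corn oil that held IDDP or nothing. The other groups used here were 5 corn oil controls and 3 rats each at 66, 132 and 1054.2 mg/kg. The left liver lobe was taken on day 5, and 100 ng of total RNA from each rat went onto 1 array. The ages of the rats are not given in the labels.

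The liver handles lipophilic compounds through nuclear receptors. CAR and PXR switch on cytochromes P450, conjugating enzymes and export pumps, NRF2 switches on glutathione and quinone-reducing enzymes, and PPARalpha drives fatty acid oxidation. Many of these genes also follow the circadian clock, in which BMAL1 with CLOCK or NPAS2 activates genes through E-box motifs and the PER, CRY and REV-ERB (Nr1d1, Nr1d2) proteins repress the loop. The clock's output factors DBP, TEF and HLF activate genes through D-box motifs, where NFIL3 acts as a repressor.

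Doubling the dose from 263.6 to 527.1 mg/kg gave no probe set past the threshold (adjusted p under 0.05, limma with Benjamini-Hochberg adjustment over 31042 probe sets; percent called 0). The genes with the smallest p were those of the clock output factor Dbp and the lipid transfer protein Osbpl11, each 0.0754 after adjustment. At an unadjusted p under 0.05 there were 1809 probe sets (5.83%), of which 771 were higher at 527.1 mg/kg (2.48%) and 1038 lower (3.34%). The 3 arrays of one dose did not overlap with the 3 of the other for 2548 probe sets (8.21%), 1056 higher (3.4%) and 1492 lower (4.81%). Differences of at least 2-fold were present for 37 probe sets, 13 higher and 24 lower, and differences of at least 1.5-fold for 228. The values below are therefore differences with their errors, none of which passed the threshold, unless another comparison is named. The limit that the spread between rats set on a difference was narrow for most probe sets. The median standard error was 0.13 on the log2 scale, and the 95% interval lay wholly within a 2-fold change in either direction for 30522 probe sets (98.3%) and within 1.5-fold for 27189 (87.6%).

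Genes that define hepatocytes were bright at both doses. Of 9 measured hepatocyte genes 0 passed the threshold, with a median difference of 0.03 and a range from -0.07 (Fgb) to 0.17 (Hnf4a). The 263.6 mg/kg means of the other 8 ran from 13.99 (Cps1) to 15.35 (Alb) log2, at the bright end of the array. Hnf4a, the hepatocyte transcription factor, lay below them at 12.29, 12.30 and 12.39 against 12.55, 12.54 and 12.40, with no overlap (0.17 ± 0.11). Its other, dimmer probe sets differed by -0.01 and 0.00, with overlap. In the list 1 gene was separated upwards and 1 downwards (beside 3.88% and 4.09% of all genes). Albumin (Alb) was at 15.35, 15.35 and 15.34 log2 at 263.6 mg/kg and at 15.34 in all 3 rats at 527.1 mg/kg. Pearson's r across probe sets was 0.987 to 0.992 between the 263.6 mg/kg arrays, 0.990 to 0.994 between the 527.1 mg/kg arrays and 0.987 to 0.995 across the doses, a measure that the differences in brightness between probe sets hold near 1. RNA quality was read as the 3' minus 5' signal of the actin and GAPDH controls, averaged per array, a value that grows as RNA degrades. It was 1.92 ± 0.48 (SD) in the 3 rats of the lower dose and 1.69 ± 0.096 in the 3 of the higher (exact permutation test, two-sided, p = 0.8, smallest possible 0.1). Replicate 2 at 263.6 mg/kg stood apart with 2.47, and without it the difference between the doses turned from -0.226 to 0.0505.

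Among the output factors of the clock, Dbp was higher and Nfil3 lower at 527.1 mg/kg in every rat. Dbp was at 6.84, 7.77 and 7.46 log2 in the rats given 263.6 mg/kg and at 9.22, 8.59 and 9.96 in those given 527.1 mg/kg. The highest rat of the lower dose lay below the lowest rat of the higher dose. The difference was 1.90 ± 0.30 log2 (SE; 95% interval 1.26 to 2.53; limma adjusted p = 0.0754), a 3.73-fold higher level. Dbp was at 5.96 ± 0.24 in controls (SD, n = 5), had means of 6.32 and 6.39 at 66 and 132 mg/kg, and was at 9.41 ± 0.55 at 1054.2 mg/kg (SD, n = 3). From 527.1 to 1054.2 mg/kg it was 0.15 log2 higher (limma adjusted p = 0.982). Nfil3, the repressor at the same D-box motif, lay the other way. Its values were 10.07, 10.29 and 9.93 at 263.6 mg/kg and 9.36, 9.18 and 8.81 at 527.1 mg/kg, with no overlap and a difference of -0.98 ± 0.23 (limma adjusted p = 0.406). Nfil3 in controls was at 10.09 ± 0.42, close to the 263.6 mg/kg level, and at 1054.2 mg/kg it was at 9.23 ± 0.11. Tef was at 8.71, 8.91 and 8.83 at 263.6 mg/kg and at 9.08, 8.91 and 9.28 at 527.1 mg/kg, which is 0.28 ± 0.14 higher. The lowest Tef value at 527.1 mg/kg matched the highest at 263.6 mg/kg to the second decimal. Hlf, the other activator of the family, differed by 0.06.

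The promoters of the D-box factors that differed are shown because these genes lay in opposite directions. Each is the 250 bases before the start of the gene in RefSeq, on the assembly GRCr8 and on the plus strand, with an E-box in capitals where one was found. The E-box searched was CACGTG and the D-box TTATGTAA, each on both strands and not overlapping with one another.
Dbp, chr1:105312006-105312255: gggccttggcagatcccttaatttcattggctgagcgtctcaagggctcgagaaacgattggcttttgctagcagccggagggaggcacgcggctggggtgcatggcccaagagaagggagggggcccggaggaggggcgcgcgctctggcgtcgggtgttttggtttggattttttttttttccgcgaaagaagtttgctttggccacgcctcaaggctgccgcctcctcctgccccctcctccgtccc
Tef, chr7:115206577-115206826: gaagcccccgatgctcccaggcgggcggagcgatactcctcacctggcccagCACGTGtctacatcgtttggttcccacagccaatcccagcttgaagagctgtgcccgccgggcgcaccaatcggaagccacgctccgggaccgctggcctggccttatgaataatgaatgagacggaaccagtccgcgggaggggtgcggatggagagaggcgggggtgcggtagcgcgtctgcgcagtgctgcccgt
Nfil3, chr17:12432126-12432375: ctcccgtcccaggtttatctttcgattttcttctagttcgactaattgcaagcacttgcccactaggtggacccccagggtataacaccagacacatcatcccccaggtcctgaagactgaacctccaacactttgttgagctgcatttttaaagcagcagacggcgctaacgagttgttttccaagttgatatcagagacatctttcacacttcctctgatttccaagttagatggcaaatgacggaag
The Tef window held 1 E-box, whose first base lies 198 bases before the start used, and that start lies inside the longer RefSeq gene model. The Dbp and Nfil3 windows held neither string of letters, which says only that it is not in these 250 bases. Of 15 clock genes with a promoter in the RefSeq table, 3 held an E-box (Bhlhe40, Bhlhe41 and Tef) and 1 a D-box (Per2), against 1591 of 27457 promoters (5.79%) and 224 (0.816%). A match is a description of the sequence, not of a binding site.

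Among the other 13 of the 17 measured clock genes, the repressor Cry2 was the most clearly separated. It was at 8.09, 8.20 and 8.24 at 263.6 mg/kg and at 8.75, 8.86 and 8.77 at 527.1 mg/kg, a difference of 0.62 ± 0.13 (limma adjusted p = 0.313). A second, dimmer Cry2 probe set differed by -0.06. The REV-ERB genes Nr1d1 and Nr1d2 were 0.50 ± 0.27 and 0.41 ± 0.20 higher at 527.1 mg/kg with no overlap, and Per3 was 0.59 ± 0.24 higher with overlap. Of the activators, Clock differed by 0.02 and Rora by 0.22, while Bmal1 and Npas2 lay lower. Bmal1 was at 7.99, 7.81 and 7.88 at 263.6 mg/kg and at 7.15, 7.63 and 7.27 at 527.1 mg/kg, a difference of -0.54 ± 0.21 (limma adjusted p = 0.793). Npas2 was at 7.98, 8.22 and 8.23 against 7.64, 7.88 and 7.65, a difference of -0.42 ± 0.31. The repressor Per1 did not separate. In the whole clock list 0 of 17 passed the threshold, 5 were separated upwards and 3 downwards, and the median difference was 0.15 beside 0.00 over 14217 genes. The share of all genes that were separated was 7.97% (3.88% higher and 4.09% lower). All 10 clock genes that differed from the controls at 1054.2 mg/kg had the same sign between 263.6 and 527.1 mg/kg. The same held for 68.8% of all probe sets called there (3.3% of those tested). The group means of both comparisons come from different arrays, while the spread was estimated from all 20 arrays. The hour at which each liver was taken was not used here, so its part in these values was not tested.

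**Figure D1:**
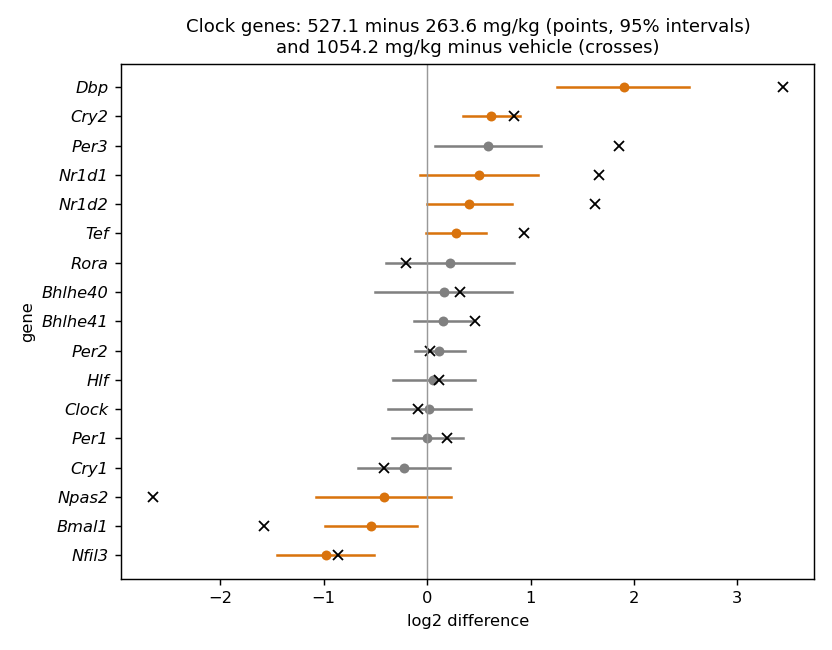
Differences of 17 clock genes on the log2 scale: points with 95% intervals give 527.1 minus 263.6 mg/kg (3 rats each, orange where the arrays of both doses do not overlap), and crosses give 1054.2 mg/kg (3 rats) minus vehicle (5 rats). Dbp (1.90) and Nfil3 (-0.98) lie at the ends, and Dbp, Per3, Nr1d1, Nr1d2, Npas2 and Bmal1, which have the farthest crosses, lie on the same side of 0 in both comparisons.

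Osbpl11, an oxysterol-binding-protein relative that moves lipids between membranes, was the other gene with an adjusted p of 0.0754. Its values were 8.37, 8.60 and 9.01 at 263.6 mg/kg and 9.40, 9.70 and 9.46 at 527.1 mg/kg. The difference was 0.86 ± 0.14 log2 (95% interval 0.57 to 1.15), or 1.81-fold, with no overlap. Osbpl11 stayed near its control level of 8.57 ± 0.10 through 66 mg/kg (mean 8.65), 132 mg/kg (8.61) and 263.6 mg/kg (8.66 ± 0.32), so that the 527.1 mg/kg rats, at 9.52 ± 0.16, were the lowest dose group in which all 3 rats lay above all 5 controls. Hsd17b2, which oxidises estradiol and testosterone to their less active ketones, was at 11.03, 11.25 and 11.86 at 263.6 mg/kg and at 12.51, 12.22 and 12.69 at 527.1 mg/kg. It was 1.09 ± 0.22 higher (2.13-fold, limma adjusted p = 0.291) and did not go further at 1054.2 mg/kg, where the mean was 12.36 ± 0.24. Unlike Osbpl11, Hsd17b2 already passed at 263.6 mg/kg against vehicle (0.89 higher, limma adjusted p = 0.0447). Its control level was 10.49 ± 0.21, with means of 10.69 at 66 mg/kg and 11.05 at 132 mg/kg. Anxa7, a calcium-dependent phospholipid-binding annexin, was at 8.06, 7.72 and 7.62 against 8.51, 8.63 and 8.36, a difference of 0.70 ± 0.14, while a second and dimmer probe set differed by 0.11.

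Some of the leading genes were lower at 263.6 mg/kg than in the controls and back near the control level at 527.1 mg/kg. The potassium channel gene Kcnk5 was at 6.30, 6.51 and 6.44 at 263.6 mg/kg and at 7.42, 6.78 and 7.53 at 527.1 mg/kg, with a difference of 0.83 ± 0.17 (limma adjusted p = 0.291) and a control mean of 6.97 ± 0.21. Tnfaip2, a TNF-induced gene, was at 6.15, 6.24 and 6.70 against 6.97, 7.28 and 6.94, with a control mean of 6.80 ± 0.14. Of its other 3 probe sets, 1 was 0.51 higher with no overlap and the others differed by -0.06 and 0.01. Neither Kcnk5 nor Tnfaip2 differed from the controls at either dose after adjustment (limma adjusted p 0.114 and 0.168 at 263.6 mg/kg, 0.445 and 0.411 at 527.1 mg/kg). The remaining leading genes of this direction were carbonic anhydrase 2 (Car2, 0.66 ± 0.13), the deglycating kinase Fn3k (0.46 ± 0.10) and the dim probe set of the cell adhesion gene Flrt2 (0.56 ± 0.11). Of the 10 leading genes that were higher, 6 passed at 1054.2 mg/kg against vehicle and were higher there (beside 1.86% of all probe sets), and 0 were lower. Of the 1809 probe sets at an unadjusted p under 0.05, 7.85% passed there in either direction.

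**Figure D2:**
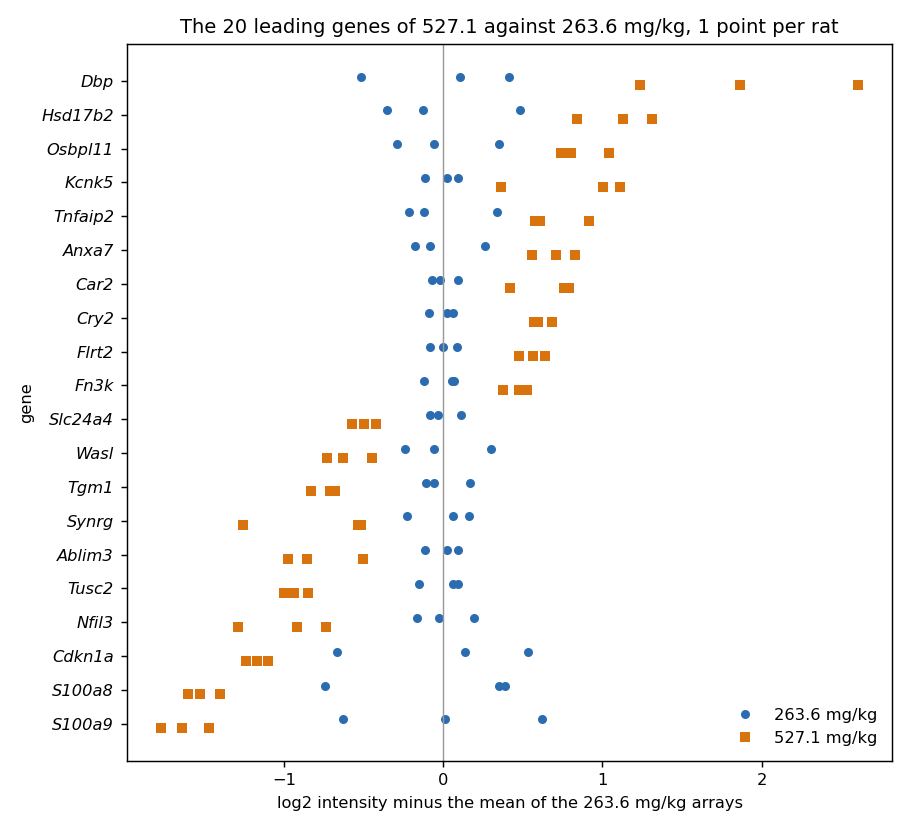
The 10 higher and 10 lower genes of smallest p among those whose arrays do not overlap, 1 point per rat, as log2 intensity minus the mean of the 3 rats at 263.6 mg/kg (blue circles; 527.1 mg/kg, orange squares). The S100a9, S100a8 and Cdkn1a rats are spread most widely at 263.6 mg/kg and lie close together at 527.1 mg/kg, while Dbp is spread widely at both doses.

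On the lower side, the calprotectin genes S100a9 and S100a8, the calcium-binding proteins that neutrophils carry in quantity, had the largest differences of the 10 leading genes. S100a9 was at 9.06, 8.45 and 7.81 at 263.6 mg/kg and at 6.97, 6.67 and 6.80 at 527.1 mg/kg, a difference of -1.62 ± 0.33 (95% interval -2.31 to -0.94; limma adjusted p = 0.291). All 3 rats at 263.6 mg/kg stood high. The control mean was 6.98 ± 0.27, the means at 66, 132 and 1054.2 mg/kg were 6.95, 6.96 and 6.67, and S100a9 passed the threshold at 263.6 mg/kg against vehicle (1.46 higher, limma adjusted p = 0.0339). S100a8 was at 6.74, 6.78 and 5.65 against 4.99, 4.79 and 4.86, a difference of -1.51 ± 0.37, with controls at 5.20 ± 0.21. At 132 mg/kg the rats were spread widely, at 7.15, 7.74 and 5.98 for S100a9 and at 5.69, 6.66 and 4.39 for S100a8. The S100a8 value of 6.66 lay within the range at 263.6 mg/kg. The skin and barrier transglutaminase Tgm1 was likewise high at 263.6 mg/kg and near the controls at 527.1 mg/kg. Its values were 6.62, 6.39 and 6.34 against 5.74, 5.77 and 5.62 (-0.74 ± 0.18), with controls at 5.68 ± 0.30, but 1054.2 mg/kg was high again at 6.47 ± 0.39.

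The neutrophil list was read beside these genes, and in bulk liver fewer cells of a type and less RNA per cell cannot be told apart. Of 7 measured neutrophil genes, S100a8, S100a9 and the chemokine receptor Cxcr2 were separated and lower at 527.1 mg/kg (Cxcr2 by -0.37 ± 0.10, from means of 4.74 to 4.38), and all 3 had an unadjusted p under 0.05 (beside 2.93% of all genes on the lower side). The list's median difference was -0.12. The granule and receptor genes Camp, Mmp8, Mmp9 and Csf3r differed by -0.05, -0.07, -0.12 and 0.07. The mean level of the list per rat, which includes S100a8 and S100a9, was 5.49 to 5.91 log2 at 263.6 mg/kg and 5.15 to 5.27 at 527.1 mg/kg. The part of neutrophils in the S100a8 and S100a9 values was not tested.

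The acute phase and inflammation list, which holds S100a8 and S100a9 too, had 0 of 28 genes past the threshold, 2 separated upwards and 6 downwards (beside 3.88% and 4.09% of all genes), and a median of -0.07. Haptoglobin (Hp) was -0.03 ± 0.08, complement C3 was -0.01 ± 0.07 and C-reactive protein (Crp) was -0.07 ± 0.39. Other members were high in some rats at 263.6 mg/kg. The neutrophil-attracting chemokine Cxcl1 was at 11.44 and 11.42 in replicates 1 and 2 and at 8.38 in replicate 3, against 8.36, 8.05 and 8.21 at 527.1 mg/kg (-2.20 ± 0.95). The control mean of Cxcl1 was 9.86, above all 3 rats at 527.1 mg/kg. Alpha-2-macroglobulin (A2m), the rat's strongest acute phase protein, was at 12.34, 11.41 and 9.64 against 8.68, 9.87 and 9.72 (-1.71 ± 0.54), and here the groups overlapped. Stat3, the transcription factor behind much of this response, was 0.69 ± 0.31 lower, and the interferon-induced chemokine Cxcl10 was 0.82 ± 0.25 higher. Replicates 1 and 2 at 263.6 mg/kg were thus the high rats for Cxcl1, A2m and S100a8, and replicate 3 was lower for all 3 genes and for S100a9.

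Cdkn1a, which encodes the cell cycle inhibitor p21, was at 10.61, 10.22 and 9.41 at 263.6 mg/kg and at 8.98, 8.91 and 8.84 at 527.1 mg/kg. The difference was -1.17 ± 0.27 (95% interval -1.73 to -0.62; limma adjusted p = 0.406), and a dimmer probe set was also separated, at -0.27. The control level was 10.31 ± 0.44, and the level at 1054.2 mg/kg, 8.17 ± 0.08, was below that at 527.1 mg/kg. Cdkn1a fell against vehicle at 527.1 mg/kg (-1.40, limma adjusted p = 0.00371) and at 1054.2 mg/kg (-2.14, limma adjusted p = 2.57e-05). The other p53 targets with separated arrays lay higher. Bbc3, which encodes the pro-apoptotic protein PUMA, was 0.63 ± 0.15 higher, and Mdm2, the ubiquitin ligase for p53, was 0.31 ± 0.12 higher, both with no overlap. Over the 13 measured p53 targets 0 passed, and the median difference was 0.15. In this list 2 genes were separated upwards and 1 downwards (beside 3.88% and 4.09% of all genes).

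The other leading genes that were lower were chosen by p and not as a group. The actin-binding gene Ablim3 was -0.78 ± 0.16 (a second probe set -0.89 ± 0.21, also separated), the actin nucleation factor Wasl -0.60 ± 0.14 and the clathrin adaptor partner Synrg -0.77 ± 0.18. Brighter Wasl probe sets differed by -0.39 and -0.65, and a dimmer Synrg probe set by -0.25, all with overlap. Tusc2, a tumour suppressor candidate, was at 8.44, 8.65 and 8.68 against 7.59, 7.65 and 7.74 (-0.93 ± 0.21), and at 1054.2 mg/kg it was at 8.36 ± 0.03, near the control mean of 8.32 ± 0.44. Slc24a4, a sodium-calcium exchanger gene, was at 6.32, 6.18 and 6.13 against 5.79, 5.64 and 5.71 (-0.50 ± 0.11), while its other probe sets differed by -0.01 and -0.10. Of the 10 leading genes that were lower, 4 passed at 1054.2 mg/kg against vehicle and were lower there (beside 1.44% of all probe sets), and 1, Tgm1, passed and was higher. Of the 1809 probe sets at an unadjusted p under 0.05, 7.85% passed there in either direction. Here too the spread is shared by both comparisons, so choice by p also favours passing at 1054.2 mg/kg.

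**Figure D3:**
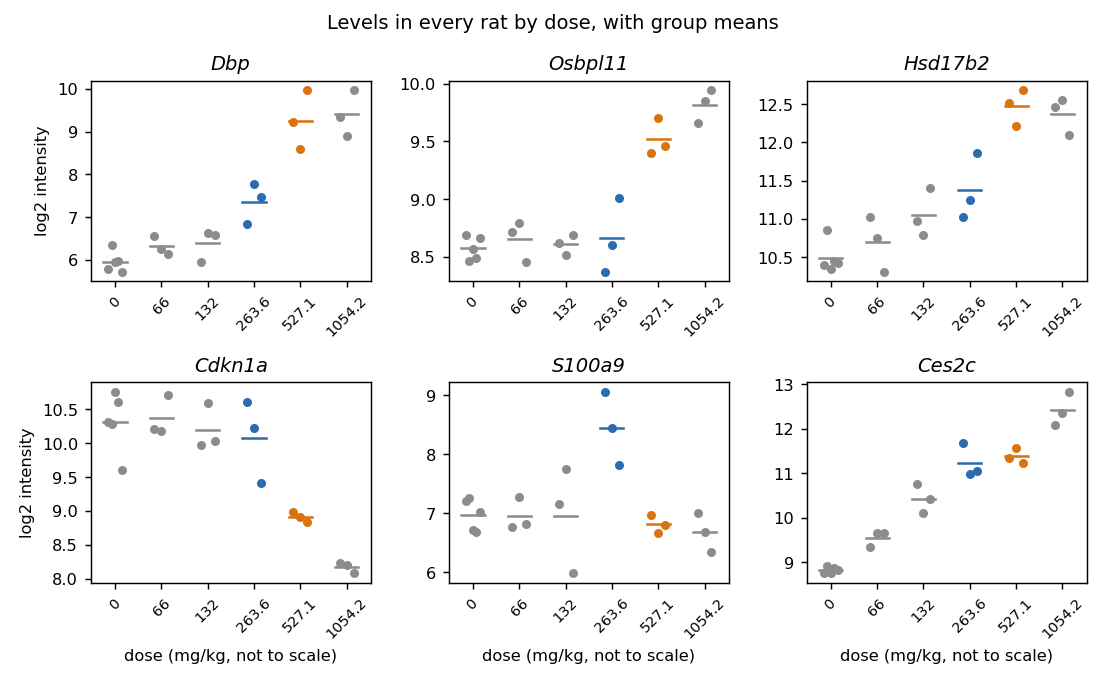
Log2 intensity in every rat for 6 genes across the 6 dose groups (0 is vehicle; doses evenly spaced, not to scale), with bars at the group means and the compared doses in blue and orange. Dbp, Osbpl11 and Hsd17b2 are higher and Cdkn1a is lower at 527.1 mg/kg, all 3 rats at 263.6 mg/kg lie above every other rat in S100a9, and Ces2c is at nearly one level at both doses.

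The 10 largest rises and 10 largest falls at 1054.2 mg/kg against vehicle were read at this doubling. Some of them overlapped between 263.6 and 527.1 mg/kg and others, Dbp and Cdkn1a among them, did not. Ces2c, a carboxylesterase, had the largest rise at 1054.2 mg/kg against vehicle (3.60 log2). It was at 11.68, 10.99 and 11.05 at 263.6 mg/kg and at 11.35, 11.57 and 11.24 at 527.1 mg/kg, so the groups overlapped, and the difference was 0.15 ± 0.19 (95% interval -0.25 to 0.55). The control level was 8.83 ± 0.07 and the level at 1054.2 mg/kg was 12.43 ± 0.38. The efflux pump Abcc3 was 0.30 ± 0.31 higher (-0.35 to 0.96), the glutathione transferase Gsta3 0.11 ± 0.19 (-0.29 to 0.52) and the aldehyde reductase Akr7a3 0.09 ± 0.26 (-0.45 to 0.64), all with overlap. Among the largest falls, the taurine transporter Slc6a6 was at 7.41, 7.78 and 7.76 against 6.67, 7.0 and 7.70, a difference of -0.52 ± 0.22, from a control level of 10.30 ± 0.27. The desaturase Scd was at 9.12, 9.45 and 8.41 against 8.04, 10.00 and 10.48, with one rat lower and both others higher than every rat of the lower dose. Of the 10 largest rises at 1054.2 mg/kg, 9 had the same sign at this doubling and 2 were separated (Dbp and Hsd17b2). Of the 10 largest falls, 8 had the same sign and 3 were separated (Cdkn1a, Egr1 and Npas2). Of all tested probe sets, 56.8% had the same sign and 5.23% were separated in the same direction. Of all probe sets called at 1054.2 mg/kg the shares were 68.8% and 14.3%. The stress-response regulator Egr1 was at 9.64, 9.73 and 8.46 against 7.57, 7.74 and 8.43, a difference of -1.36 ± 0.42 (limma adjusted p = 0.703).

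All 1024 probe sets that passed at 1054.2 mg/kg against vehicle (3.3% of those tested) were then followed across the doubling. That comparison takes its group means from other arrays, but its spread was estimated from all 20 arrays. Low spread within the arrays of the doubling therefore also favoured choice, which bears on the counts by p and by separation. Of the 1024, 704 (68.8%) had the same sign at the doubling, beside 56.8% of all tested probe sets. The share was 75.7% of the 576 that rose (1.86% of those tested) and 59.8% of the 448 that fell (1.44%), with median differences of 0.10 and -0.05 log2. An unadjusted p under 0.05 in the same direction was reached by 127 (12.4%, beside 3.86% of all) and in the opposite direction by 15 (1.46%, beside 1.97%). Separation in the same direction was present for 146 (14.3%, beside 5.23% of all). As a mean over the 1024 probe sets, turned to the direction at 1054.2 mg/kg, the distance from the controls was 0.357, 0.364 and 0.353 log2 in the rats given 263.6 mg/kg and 0.492, 0.447 and 0.441 in those given 527.1 mg/kg. Every rat of the higher dose lay above every rat of the lower dose, and the difference of 0.102 was larger than the pooled standard deviation of 0.0199. The rats at 66 and 132 mg/kg lay at 0.182 to 0.225 and at 0.244 to 0.308. This order over the doses has controls in common, and at 1054.2 mg/kg, at 0.619 to 0.777, the values are those that chose the probe sets. Without replicate 2 at 1054.2 mg/kg, 529 probe sets were chosen and the arrays of the doses overlapped.

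**Figure D4:**
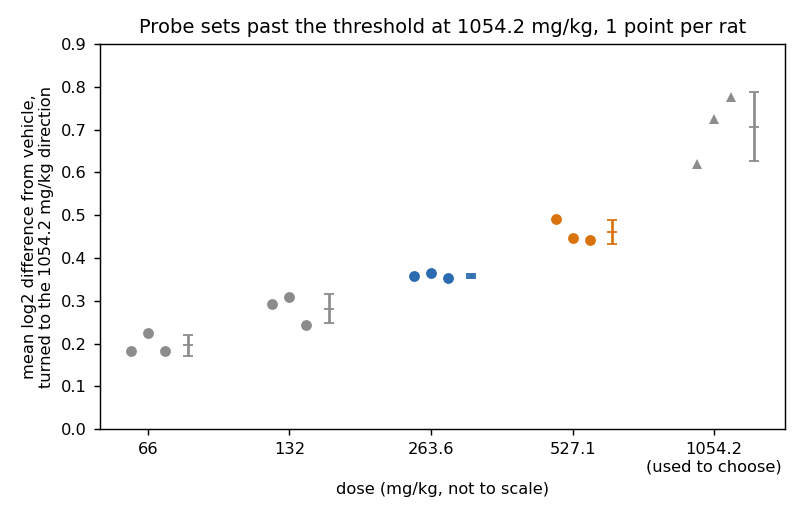
Mean log2 difference from the controls over the 1024 probe sets that passed at 1054.2 mg/kg, turned to their direction there, 1 point per rat by dose, with the group mean and SD (n = 3) beside the points. The 527.1 mg/kg rats (0.441 to 0.492) lie above the 263.6 mg/kg rats (0.353 to 0.364), and the triangles mark the rats that were used to choose the probe sets.

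Against the same 5 controls, 133 probe sets passed at 263.6 mg/kg (0.428%) and 520 at 527.1 mg/kg (1.68%), with 86 called at both doses. These comparisons share their controls, and 0 of either set passed between the doses. The 520 had a median absolute difference from controls of 0.61 log2 at 527.1 mg/kg, which chose them, and 0.39 at 263.6 mg/kg. The 133 had 0.74 at 263.6 mg/kg, which chose them, and 0.59 at 527.1 mg/kg. Each set was thus larger at the dose that chose it.

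Most CAR, PXR and NRF2 targets lay slightly higher at 527.1 mg/kg, and 4 of 7 AhR targets lay lower. Of 20 measured CAR and PXR targets 0 passed, 19 differed upwards, 4 were separated upwards and 0 downwards (beside 3.88% and 4.09% of all genes), and the median was 0.10. The efflux pump gene Abcb1a was at 7.73, 7.43 and 7.47 against 8.43, 7.79 and 8.38 (0.65 ± 0.15, limma adjusted p = 0.406), and its second probe set was 0.57 ± 0.22 higher, also separated. The bile canalicular pump Abcc2 was at 11.00, 11.06 and 11.11 against 11.37, 11.40 and 11.41 (0.33 ± 0.11), and Alas1, the rate-limiting enzyme of haem synthesis, was 0.57 ± 0.24 higher. Among the cytochromes, Cyp2b3 was 0.16 ± 0.08 higher with no overlap, and Cyp3a9, the member that lay lower, differed by -0.28 ± 0.49. The bright Cyp3a23-3a1 (mean 14.42 log2 at 263.6 mg/kg) and Cyp3a2 (14.59) differed by 0.09 ± 0.12 and 0.04 ± 0.08. All 13 members that differed from controls at 1054.2 mg/kg were higher there and had the same sign here, beside 75.7% of all probe sets called higher there. The NRF2 list gave 0 of 27 past the threshold, 4 separated upwards and 0 downwards (the same background shares), and a median of 0.13. It shares Abcc2, Abcc3, Akr7a3 and Ephx1 with the CAR and PXR list, and Abcc2 is among the separated genes of both. Of the 16 NRF2 members called at 1054.2 mg/kg, all of them higher there, 11 had the same sign, beside 75.7% of all probe sets called higher there. Sulfiredoxin (Srxn1) was at 8.41, 8.58 and 8.62 against 9.19, 8.93 and 8.97 (0.49 ± 0.14), while its other, dimmer probe sets differed by 0.11 and 0.05, with overlap. Gclm, a subunit of the enzyme that starts glutathione synthesis, was 0.33 ± 0.17 higher, and the haem oxygenase gene Hmox1 was 0.50 lower with overlap. In the list of glutathione transferases 0 of 19 passed, with a median of 0.04, and in that of glucuronidation and sulfation 0 of 17, with a median of 0.08. The carboxylesterases and paraoxonases (0 of 11, median 0.05) and AhR targets (0 of 7, median -0.10) had no separated member.

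Some genes of fatty acid oxidation lay lower and some of fatty acid synthesis higher, and others of both lists were near 0. Of 39 PPARalpha targets 0 passed, 27 differed downwards, 8 were separated downwards and 0 upwards (beside 4.09% and 3.88% of all genes), and the median was -0.06. The lipoprotein lipase inhibitor Angptl4 was at 11.00, 11.33 and 11.42 against 10.04, 10.11 and 10.40 (-1.06 ± 0.27, limma adjusted p = 0.6). Pdk4, which restrains pyruvate oxidation, was at 9.85, 9.73 and 9.96 against 8.57, 9.64 and 8.79 (-0.85 ± 0.28). The omega-hydroxylase Cyp4a1 was 0.53 ± 0.16 lower, and the beta-oxidation genes Ehhadh, Eci1 and Acaa2 were 0.34 ± 0.18, 0.34 ± 0.15 and 0.27 ± 0.12 lower. Other oxidation genes lay near 0, with differences of 0.05 for Acadl, 0.04 for Acadm, 0.03 for Decr1, 0.06 for Hadha and 0.02 for Acsl1. Angptl4 and Pdk4 also fell at 1054.2 mg/kg against vehicle (-1.57 and -0.95), whereas Cyp4a1, Ehhadh, Eci1 and Acaa2 did not pass there. Of 23 fatty acid synthesis genes 0 passed, with 4 separated upwards and 0 downwards (beside 3.88% and 4.09% of all genes) and a median of 0.03. Srebf1, which encodes the lipogenic factor SREBP-1, was at 9.83, 10.44 and 10.34 against 10.68, 11.06 and 10.91 (0.68 ± 0.22), Thrsp was 0.58 ± 0.22 higher and Mid1ip1 0.85 ± 0.27. The desaturase Scd2 was 0.87 ± 0.24 higher at its brightest probe set, while its other 3 probe sets differed by -0.19 to -0.03. For Srebf1, Mid1ip1, Thrsp and Scd2 the means at 527.1 mg/kg (10.88, 10.15, 11.74 and 6.82) were near those of the controls (10.93, 9.95, 11.45 and 6.86), and the 263.6 mg/kg means were below them. Lpin1, a phosphatidate phosphatase, lay the other way with -1.12 ± 0.43 and overlap. Of 19 cholesterol synthesis and uptake genes 0 passed and 0 were separated, while 16 differed downwards, with a median of -0.17. The mevalonate pathway kinase Pmvk (-0.42 ± 0.16) had the smallest p.

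Of the bile acid genes 4 of 22 were separated and of the glucose genes 2 of 12, beside 7.97% of all genes, and 0 passed. Nr0b2, which encodes the bile-acid-induced repressor SHP, was at 8.23, 7.40 and 9.0 against 9.68, 9.54 and 9.68 (1.42 ± 0.39, limma adjusted p = 0.643), and the controls were at 9.15 ± 0.47. The bile acid ligase Slc27a5 was 0.46 ± 0.15 lower with no overlap, and 0 of the 22 genes passed (median 0.08, 2 separated in each direction). Ppp1r3b, the glycogen-targeting subunit of protein phosphatase 1, was at 10.30, 10.22 and 10.05 against 10.51, 11.49 and 11.00 (0.81 ± 0.23). A second, dimmer Ppp1r3b probe set differed by 0.01. Ppp1r3b fell at 263.6 mg/kg against controls (-1.34, limma adjusted p = 0.00462) and did not pass at 527.1 mg/kg (-0.53, limma adjusted p = 0.243). Igfbp1, an insulin-like growth factor binding protein, was at 12.55, 11.50 and 11.55 against 11.08, 11.20 and 11.22, with no overlap (-0.70 ± 0.47). The gluconeogenesis and glucose handling list had 0 of 12 past the threshold and a median of 0.08. In the unfolded protein and ATF4 list 0 of 30 passed, with a median of -0.03, 0 separated upwards and 1 downwards (beside 3.88% and 4.09% of all genes). Immediate early genes had 0 of 18 past the threshold and a median of -0.10.

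The cell cycle list had the highest median of the 31 lists, 0.37, with 35 of 40 genes higher at 527.1 mg/kg, 5 separated upwards and 0 downwards (beside 3.88% and 4.09% of all genes), and 0 past the threshold. Pttg1, the securin of mitosis, was at 7.38, 8.02 and 8.37 against 8.65, 8.56 and 9.17 (0.87 ± 0.23, limma adjusted p = 0.642). The replication helicase subunit Mcm4 was 0.35 ± 0.15 higher and Pcna, the polymerase clamp, 0.24 ± 0.14. The mitotic cyclin Ccnb2 was at 7.10, 8.40 and 8.32 against 9.15, 8.27 and 9.01, with overlap. Replicate 1 at 263.6 mg/kg was the low rat in Ccnb2, Pttg1 and Mcm4, and the per-rat mean of the list was 6.69 to 7.44 at 263.6 mg/kg and 7.27 to 7.65 at 527.1 mg/kg. Without that rat the median was 0.13 and 33 of 40 genes were higher. Against controls the list's median was 0.59 at 263.6, 0.96 at 527.1 and 0.41 at 1054.2 mg/kg, and from 527.1 to 1054.2 mg/kg the median was -0.38.

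**Figure D5:**
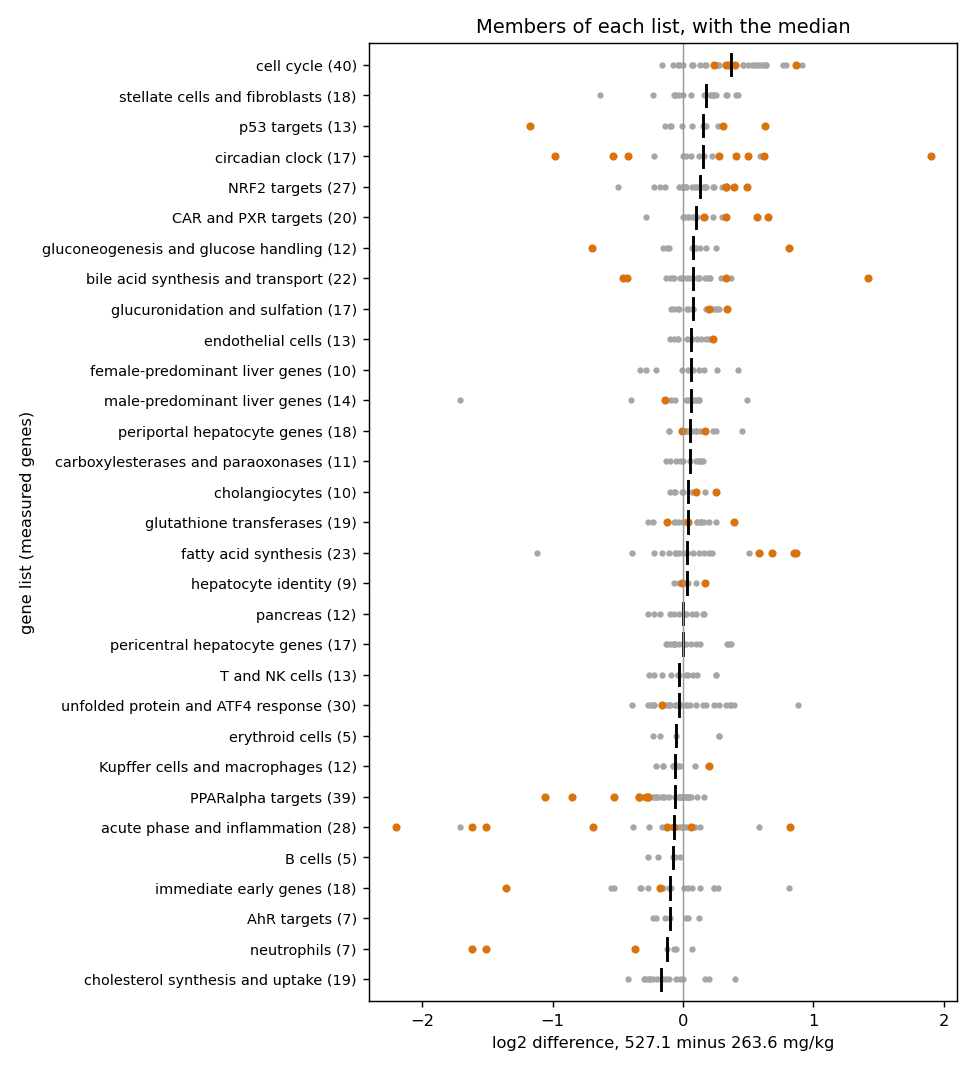
Log2 difference of 527.1 minus 263.6 mg/kg for each measured gene of 31 lists (number of genes in brackets), with a black bar at the median and orange points where the 3 arrays of both doses do not overlap. The cell cycle median (0.37) lies farthest to the right and the cholesterol median (-0.17) farthest to the left, and single genes such as Dbp, Nr0b2, Cxcl1 and S100a9 lie far outside the rest of their lists.

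Markers of the other cells of the liver gave 0 past the threshold. Of 12 Kupffer cell and macrophage genes 0 passed, the median was -0.06, and the mean per rat was 9.59 to 9.74 at 263.6 and 9.44 to 9.73 at 527.1 mg/kg. The endothelial list (13 genes) had a median of 0.06 and the cholangiocyte list (10 genes) one of 0.04. Separated upwards were 1 of the Kupffer genes (Mrc1), 1 of the endothelial genes (Vwf) and 2 of the cholangiocyte genes (Epcam and Krt7), beside 3.88% of all genes. The stellate and fibroblast list (18 genes) had a median of 0.18 with 0 separated genes. Without replicate 2 at 263.6 mg/kg, the rat of the high 3' minus 5' value, the median was 0.05. It was 0.09 without replicate 1 at that dose, and 0.11 without replicate 2 or without replicate 3 at 527.1 mg/kg. The part of RNA quality in this was not tested. T and NK cell genes (13, median -0.03), B cell genes (5, median -0.08), erythroid genes (5, median -0.05) and pancreas genes (12, median -0.00) gave 0 past the threshold and 0 separated in either direction. In the sex-biased and zonal lists the median was 0.06 over 14 male-predominant genes, 0.06 over 10 female-predominant genes, 0.00 over 17 pericentral genes and 0.05 over 18 periportal genes, with 0 past the threshold in each. Single members went both ways. The male-predominant list ran from -1.71 (A2m) to 0.49 (Obp3), with 1 separated lower. The periportal list had 1 separated in each direction, and its Cdh1 was 0.45 ± 0.18 higher with overlap.

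Whether this doubling differed from the doublings on either side was tested directly. For the difference from the next doubling (527.1 to 1054.2 mg/kg) 0 probe sets passed, and 1474 had an unadjusted p under 0.05 (4.75%). For the difference from the doubling below (132 to 263.6 mg/kg) 0 passed and 2203 had an unadjusted p under 0.05 (7.1%). Each pair of doublings shares the arrays of the dose between them. The named gene of smallest p was Slc24a4 for the first, which was 0.50 lower at this doubling and 0.65 higher at the next (difference between steps -1.15 ± 0.19, limma adjusted p = 0.134). For the second it was S100a9, which was 1.48 higher from 132 to 263.6 mg/kg and 1.62 lower from there to 527.1 mg/kg (difference between steps -3.10 ± 0.57, limma adjusted p = 0.355). Taken singly, the doubling from 132 to 263.6 mg/kg gave 0 probe sets past the threshold (2890, or 9.31%, at an unadjusted p under 0.05). The doubling from 527.1 to 1054.2 mg/kg gave 4 (0.0129%). These were the aldo-keto reductase Akr1b7 (2.09 higher), a dim probe set of Srxn1 (0.65 higher), LOC102555217 and, as the lone decrease, Dhrs7l1 (2.25 lower). Between 263.6 and 527.1 mg/kg the first of these was at 5.06, 4.23 and 4.96 against 5.29, 4.60 and 4.64, a difference of 0.09 ± 0.27.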

How the data were processed

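Liver RNA of 20 rats was measured on Affymetrix arrays, 1 array per rat. The authors deposited log2 intensities for 31099 probe sets, and the submitters' processing notes name RMA. Its version, and which arrays went into one normalisation, is not given in the sources used here. Array medians lay between 6.32 and 6.41, and the number of arrays limits the precision. No test used the 57 controls. Of the others, 20826 carried 1 gene symbol in the platform annotation, 436 several and 9780 are unnamed here, and 20758 matched RefSeq (GRCr8). Each list gene is represented by its brightest probe set.

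A linear model with 1 mean per dose was fitted to all 20 arrays in limma 3.58.1 (R 4.3.3), with empirical Bayes moderation (14 residual and 5.75 prior degrees of freedom), after a check on simulated data. All tests are two-sided, with Benjamini-Hochberg adjustment over 31042 probe sets. Errors of a difference are standard errors with 95% intervals from the moderated fit, and errors of a mean are standard deviations. The p-values measure spread between rats.

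Named genes were the 10 of smallest p in each direction among those whose arrays do not overlap, since none passed, the gene of smallest p of each list and of each difference between doublings, and the 10 largest rises and falls at 1054.2 mg/kg. Symbols starting with LOC or RGD were not named by this rule. Other list members, and probe sets that passed at the next doubling, were named after their values were seen. The comparison, the 31 lists and the rules were chosen with earlier results of these data known. Alternatives covered the arrays in the fit, scaling, dim probe sets, 1 probe set per gene, the variance prior, array weights, RNA quality, a replicate block and leaving out each rat. For the lists, leaving out rats and both scalings were added after seeing the data.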

Additional observations from a re-analysis of the deposited data

Results flagged for a closer look

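A rat far from the other 4 was found in 2 of the 21 control groups examined (the vehicle values of the leading genes and of RNA quality), by Dixon's 95% critical value of 0.71 for 5 samples. Chance alone gives about 1 in 20. Hsd17b2 was at 10.86 log2 in vehicle replicate 2, where the other controls lay between 10.34 and 10.45. Tusc2 was at 7.54 in vehicle replicate 1, where the others lay between 8.45 and 8.56. The comparison of 527.1 with 263.6 mg/kg uses the controls for the shared spread only.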

How the results depend on the processing

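The count of 0 probe sets past the threshold between 527.1 and 263.6 mg/kg became 1 with only the 6 arrays of both doses (Ubd, lower) and 2 with 1 probe set per gene (Dbp and Osbpl11, smallest adjusted p 0.035). Leaving out a rat gave 0 to 2: Osbpl11 passed without 263.6 mg/kg replicate 3 (limma adjusted p = 0.00665, difference 1.04), and Dbp and Kcnk5 passed without 527.1 mg/kg replicate 2 (0.0189 and 0.0217). Over all alternatives the adjusted p ranged from 0.0189 to 0.533 for Dbp and from 0.00665 to 0.67 for Osbpl11. The difference from the next doubling gave 1 after repeated quantile normalization (LOC102555217) and 0 to 1 when a rat was left out, and the difference from the doubling below gave 0 to 2. The difference between the 2 doses in mean distance from controls (0.102) ranged from 0.0913 to 0.153 when a rat was left out. The RNA quality difference of -0.226 ranged from -0.387 to 0.0505 and reversed to 0.0505 without 263.6 mg/kg replicate 2. The labels do not say what the replicate numbers mean. Deviations of same-numbered rats correlated at 0.17, 0.09 and 0.15, with a highest value against another number of 0.01, 0.12 and -0.02, so numbers 1 and 3 correlated best with their own number and number 2 did not. The rats were treated as unpaired because the replicate numbers carry no stated pairing, a question that these correlations do not settle. The fit with the replicate block gave 0 calls (1637 at an unadjusted p under 0.05, against 1809). Of 788 values for 47 named genes, 782 kept direction and side of the threshold, 5 passed and 1 reversed (Slc4a1, from -0.18 to 0.06 without 263.6 mg/kg replicate 1, with a range of -0.31 to 0.06 when a rat was left out). Leaving out a rat moved the list medians over 0.13 to 0.51 (cell cycle), 0.10 to 0.27 (clock), 0.07 to 0.18 (CAR and PXR), 0.06 to 0.25 (NRF2), -0.18 to -0.05 (PPARalpha), -0.32 to -0.06 (cholesterol) and 0.05 to 0.24 (stellate). Other medians vanished or turned: p53 (0.15) to -0.00, AhR (-0.10) to 0.04, carboxylesterases (0.05) to -0.02, female-predominant (0.06) to -0.03, male-predominant (0.06) to -0.01, glucose (0.08) to -0.00, Kupffer (-0.06) to 0.00, erythroid (-0.05) to 0.06 and cholangiocyte (0.04) to -0.02. So did those of hepatocyte, unfolded protein, pericentral, T and NK and pancreas genes, which were within 0.03 of 0. The cause of these changes was not tested. With 3 rats a dose, a 2-fold difference lay outside the 95% interval for 98.3% of the probe sets, and a 1.5-fold one for 87.6%.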
